A study of Mus musculus with 4 samples.

Results

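The genes described here are 5 chemokines, Cxcl5, Cxcl9, Cxcl10, Cxcl14 and Ccl7, and the atypical chemokine receptor Ackr4. They were taken by name from a table of 3891 genes, and all 6 were present and passed the filter on low values. The table came from stromal cells of the small intestine of wild-type male C57Bl/6 mice aged 8 weeks, with no allele or treatment in any sample. Live single cells lacking CD45, EpCAM and CD31 and carrying gp38 (podoplanin) were sorted after Liberase TL digestion. Droplet sequencing (10X Genomics) gave 2 libraries and plate sequencing (Smartseq2) gave another 2. No source says how many mice went into a library, so the spread between libraries may be technical as well as biological.

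The 10X cells were placed in groups by genes with a UMI (a unique molecular identifier, which counts 1 captured transcript). Cells with Sox6, the marker of subepithelial cells, were divided into those with Wif1, a Wnt inhibitor, those with Adamts18, the protease of villus tip telocytes, and those with neither. The remaining cells were called mesothelial-like when 3 or more of Inmt, Penk, Vit and Scara5 were detected, and Fibin type when 3 or more of Chodl, Dner, Thbs2 and Ptn were detected. Cells still left were called crypt fibroblasts if they held Grem1, a BMP antagonist made around crypts, and otherwise villus fibroblasts if they held Lpl. The crypt and villus groups together are called lamina propria fibroblasts below. In comparisons and folds their means count equally, whatever the number of cells, as do the means of the Sox6 groups. Only 4 cells held both Wif1 and Adamts18, and they were left out of the tests.

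Chemokines are secreted proteins that direct the movement of leukocytes through G protein-coupled receptors. Cxcl5 belongs to the ELR-bearing CXC chemokines that attract neutrophils through Cxcr2. Cxcl9 and Cxcl10 are induced by interferons and attract activated T cells through Cxcr3, whereas Cxcl14 is a chemokine made constitutively in many epithelial and stromal tissues. Ccl7 attracts monocytes through Ccr2. Ackr4 binds Ccl19, Ccl21 and Ccl25 without G protein signaling and removes them by internalization, and is therefore known as a scavenger. Intestinal fibroblasts are a recognized source of chemokines, and cells with Ackr4 have been described in the deeper layers of the gut wall.

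In GENCODE M21 (GRCm38) the 6 genes are protein coding. Cxcl5 lies at chr5:90759360-90761624 on the plus strand. Cxcl9 at chr5:92321347-92328079 and Cxcl10 at chr5:92346638-92348889 are both on the minus strand, with 18558 bases between them. Cxcl14 lies at chr13:56288643-56296551 (minus), Ccl7 at chr11:82045712-82047525 (plus) and Ackr4 at chr9:104084157-104126933 (minus).

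RefSeq promoter sequences (GRCm38.p6) were at hand for 4 of the 6 genes, Cxcl9, Cxcl10, Cxcl14 and Ackr4. The 250 bases before the start site are shown for Cxcl9 and Cxcl10, neighbors on chromosome 5. They were detected together in few cells, but more often than the product of their shares of cells gives. The Cxcl9 sequence is chr5:92328080-92328329 and the Cxcl10 sequence is chr5:92348890-92349139, both written 5′ to 3′ on the minus strand, with motif matches in capitals.
Cxcl9: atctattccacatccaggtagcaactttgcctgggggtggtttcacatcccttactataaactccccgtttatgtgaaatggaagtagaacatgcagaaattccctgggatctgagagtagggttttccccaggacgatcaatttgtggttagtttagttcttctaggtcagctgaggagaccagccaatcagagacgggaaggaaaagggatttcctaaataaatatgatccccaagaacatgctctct
Cxcl10: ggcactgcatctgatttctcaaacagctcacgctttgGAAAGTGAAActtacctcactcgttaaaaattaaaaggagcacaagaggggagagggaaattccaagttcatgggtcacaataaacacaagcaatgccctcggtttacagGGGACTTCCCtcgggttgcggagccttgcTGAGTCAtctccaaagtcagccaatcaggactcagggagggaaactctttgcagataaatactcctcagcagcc
Both strands were searched for 4 motifs, where N is any base: GAAA, NN and GAAA joined (an interferon-stimulated response element), TTC, NNN and GAA joined (a gamma-activated site), GGGA, N, TT, N and CC joined (NF-kB), and TGA, N and TCA joined (AP-1). The Cxcl10 window held GAAAGTGAAA from 213 to 204 bases, GGGACTTCCC from 103 to 94 bases and TGAGTCA from 74 to 68 bases before the start site, and none of these matches overlapped. The Cxcl9 and Ackr4 windows held no match, and that of Cxcl14 held GAAACAGAAA and TTCTGAGAA. Among 32851 promoters of this length, 2.98% held the first motif, 7.02% the second, 0.98% the third and 6.75% the fourth. A match or its absence says only whether these letters are in the window.

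The table held 2547 cells of library 1 and 14344 of library 2, with a median of 8757 and 6874 UMIs per cell over all genes and 7 cell barcodes in common. Over the 7 groups, library 1 gave from 18 to 1021 cells and library 2 from 174 to 4837, and the median depth of a group lay between 5982 and 11976 UMIs. The smallest group was the Sox6 cells with Adamts18, with 18 cells in library 1. Every fixed marker list named for a group was highest in that group in both libraries except the crypt list, which summed to 57.7 and 60.0 UMIs per 10,000 in the crypt group and to 66.2 and 63.0 in the mesothelial-like group. The mesothelial-like group thus held the crypt list at least as high as the crypt group, and its gate did not ask for Grem1. It had a raised sum of Igfbp6, Gpc3, Ebf2, Wt1 and Prrx1 (10.6 and 12.9 UMIs per 10,000, at most 3.67 in any other group). The crypt group still held 40.5 and 51.0 UMIs per 10,000 of the villus marker Adamdec1, against 103 and 128 in the villus group. The villus list was also high in Sox6 cells, at 101 and 109 with Adamts18 and 73.1 and 75.9 with neither gene. It was 29.4 and 33.7 with Wif1, and 120 and 150 in the villus group. Immune, endothelial and epithelial marker lists summed to at most 0.31 UMIs per 10,000 in any group. Other lists were higher and differed between groups. The smooth muscle list summed to 6.93 and 4.71 in Sox6 cells with Adamts18, 4.18 and 3.68 in those with Wif1 and at most 1.06 outside the Sox6 groups. The list for interstitial cells of Cajal summed to 4.35 and 3.77 in Sox6 cells with Wif1 and 2.19 and 2.69 in those with Adamts18. It summed to 2.89 and 2.45 in those with neither gene, and to 0.565 and 2.59 in the Fibin type. In Sox6 cells with Adamts18 and those with Wif1, nearly all of the smooth muscle sum was Myh11 (6.75 and 4.64 with Adamts18, 4.12 and 3.599 with Wif1). In these 2 groups Actg2 was at most 0.176 and Cnn1 at most 0.0151. Kit, which defines interstitial cells of Cajal, was at most 0.0347 in these groups, and most of that list's sum was Etv1 (4.32 and 3.74 with Wif1). Lymphoid stroma genes summed to 0.987 and 1.94 in mesothelial-like and 0.714 and 1.77 in crypt cells, and at most 0.80 elsewhere. The part of these lists in the differences below was not tested. The glia list reached 1.32 among Sox6 cells with neither gene in library 2, where 63 of 1704 cells held at least 2 glia markers.

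A level is given below as the mean number of UMIs per 10,000 in a group of cells, for library 1 and then library 2. Shares of cells with a UMI depend on depth, so they are given after every cell was thinned to 2000 UMIs, with exact (Clopper-Pearson) 95% intervals that cover counting error only. Free RNA in droplets can also give a UMI. As a rough reference for that background, the 135 cells of library 2 with at least 2 glia markers (median 5146 UMIs) were used. The gates placed 83 of them in the groups described here, and 1 of them held 28 Cxcl10 UMIs, so they are not a pure measure of free RNA. After thinning, 0.901% of them held Cxcl5, 0% Cxcl9 (0 of 111 cells, exact upper limit 3.27%), 9.01% Cxcl10, 1.80% Cxcl14, 1.80% Ccl7 and 2.70% Ackr4. Groups were compared with limma on the mean natural log (ln) value per library and group, and every difference below is on that scale unless a fold in level is named.

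**Figure D1:**
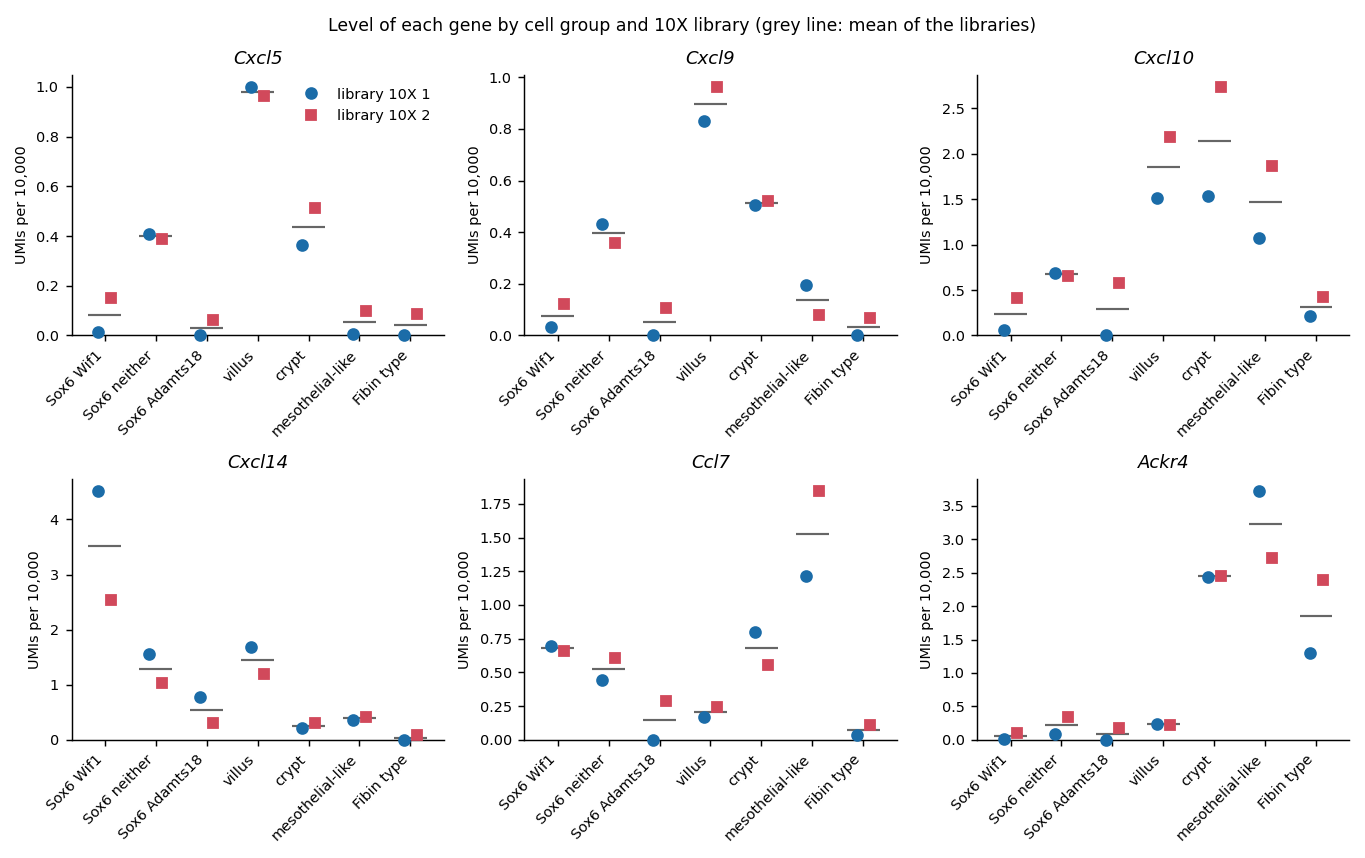
Level of each gene (UMIs per 10,000, linear axes that differ between panels) in 7 cell groups. Circles are library 1, squares library 2 and grey lines their mean. Cxcl5 and Cxcl9 were highest in villus fibroblasts, Cxcl14 in Sox6 cells with Wif1, and Ccl7 and Ackr4 in the mesothelial-like group in both libraries.

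Cxcl5 was highest in villus fibroblasts, at 1.00 and 0.962 UMIs per 10,000 (0.981 ± 0.0266, SD, n = 2 libraries). Crypt fibroblasts followed at 0.362 and 0.513 and Sox6 cells with neither gene at 0.408 and 0.388, and these neighbors overlapped between libraries. In the 4 other groups no library exceeded 0.151. The villus values stood apart from all others. The level in villus over crypt was 2.76-fold in library 1 and 1.88-fold in library 2, a difference for crypt minus villus of −0.118 (95% interval −0.144 to −0.0917, limma adjusted p = 0.000243). The leading groups kept this order in detection, as 6.38% (4.55 to 8.65) and 8.08% (7.21 to 9.02) of thinned villus cells held a Cxcl5 UMI, 2.57% and 4.52% of crypt cells, and at most 1.17% of mesothelial-like and Fibin type cells, which is near the 0.901% of glia-marker cells. Transcripts were concentrated in few cells. The highest 10% of villus cells carried 94.2% and 91.4% of the Cxcl5 UMIs. A single villus cell held 156 of 517 in library 1 and 212 of 2609 in library 2. In library 1, 1 crypt cell held 83 of 376 and 1 Sox6 cell with neither gene held 31 of 56, so these levels lean on single cells.

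Cxcl9 showed the same order at its top. Villus fibroblasts held 0.829 and 0.963 UMIs per 10,000, crypt fibroblasts 0.507 and 0.520 and Sox6 cells with neither gene 0.432 and 0.359, and none of these neighbors overlapped. The remaining groups lay between 0 and 0.195, and neighbors among them overlapped. The villus level exceeded the crypt level 1.63-fold and 1.85-fold (crypt minus villus −0.0564, 95% interval −0.0876 to −0.0252, limma adjusted p = 0.0187). That call was among the less stable, with adjusted p between 0.0023 and 0.271 over 9 alternative settings, 5 of which passed. A Cxcl9 UMI was found in 6.21% and 5.15% of thinned villus cells and 3.37% and 3.46% of crypt cells. Single cells weighed heavily: 1 crypt cell of library 1 held 265 of the 672 Cxcl9 UMIs of its group, and 1 Sox6 cell with neither gene held 50 of 52.

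Cxcl10, the other interferon-inducible gene of the pair, had 3 leading groups in place of 1. Crypt fibroblasts held 1.54 and 2.74 UMIs per 10,000, villus fibroblasts 1.51 and 2.19 and mesothelial-like cells 1.08 and 1.86. These 3 groups overlapped between libraries, and library 2 was the higher in each. Crypt minus villus was 0.0973 (95% interval 0.0193 to 0.175, limma adjusted p = 0.0905), and mesothelial-like minus lamina propria was −0.0245 (−0.0920 to 0.0430, adjusted p = 0.722). Neither passed the threshold. Sox6 cells with neither gene held 0.688 and 0.658, but in library 1 a single cell, which also held glia markers, gave 92 of the 114 UMIs. Without glia-marker and immune-marker cells these levels were 0.125 and 0.665. The Fibin type held 0.212 and 0.424, Sox6 cells with Adamts18 0 and 0.573 and those with Wif1 0.0566 and 0.415. Without those marker cells all 4 of these groups overlapped. In thinned cells 15.5% and 20.3% of crypt, 12.1% and 16.0% of villus and 14.98% and 16.8% of mesothelial-like cells held a Cxcl10 UMI. The 9.01% of glia-marker cells (4.41 to 15.9) overlaps several of these intervals, and the values of 6.42% or less in Sox6 and Fibin groups lie at or below it.

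Cxcl14 was the only chemokine of the 5 highest in a subepithelial group. Sox6 cells with Wif1 held 4.51 and 2.54 UMIs per 10,000, more than any other group in either library. Villus fibroblasts held 1.69 and 1.2001 and Sox6 cells with neither gene 1.55 and 1.03, which overlap. Sox6 cells with Adamts18 (0.773 and 0.314) and mesothelial-like cells (0.367 and 0.410) also overlapped, followed by crypt fibroblasts (0.220 and 0.299) and the Fibin type (0 of 100 cells and 0.0822). A count of 0 in those 100 cells allows up to 0.036 UMIs per 10,000. The share of thinned cells with a UMI was 37.7% (28.8 to 47.3) and 25.4% (22.4 to 28.5) among Sox6 cells with Wif1, 16.6% and 14.1% in villus, 17.2% and 14.98% in Sox6 cells with neither gene and 4.36% and 4.77% in crypt. The highest 10% of Wif1 cells carried 47.4% and 61.6% of the Cxcl14 UMIs of that group.

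Within the subepithelial compartment Cxcl14 fell from Wif1 to Adamts18 cells in both libraries, 5.83-fold and 8.10-fold in level. The difference for Adamts18 minus Wif1 was −0.686 (95% interval −0.921 to −0.451, limma adjusted p = 0.000654), and it ranked in the top 3.33% of tested genes by size. The villus level was 7.68-fold and 4.02-fold that of crypt, and yet crypt minus villus (−0.337, 95% interval −0.572 to −0.102) had an adjusted p of 0.0526. Adjusted p lay between 0.00758 and 0.184 over 9 alternatives, 4 of which passed.

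Ccl7 had a different distribution from the CXC chemokines. It was highest in the mesothelial-like group at 1.22 and 1.84 UMIs per 10,000, apart from all other groups. Crypt fibroblasts (0.802 and 0.556) and Sox6 cells with Wif1 (0.695 and 0.659) overlapped, and Sox6 cells with neither gene followed (0.442 and 0.604). Villus fibroblasts (0.166 and 0.242), Sox6 cells with Adamts18 (0 and 0.288) and the Fibin type (0.038 and 0.110) were lowest. A Ccl7 UMI was found in 7.65% and 12.1% of thinned mesothelial-like cells, 9.65% and 8.87% of Sox6 cells with Wif1, 5.35% and 5.15% of crypt cells and 1.68% and 2.35% of villus cells, the last near the 1.80% of glia-marker cells. The Wif1 and crypt groups thus had like mean levels but Ccl7 was spread over a larger share of Wif1 cells. Mesothelial-like cells exceeded lamina propria fibroblasts 2.51-fold and 4.62-fold (difference 0.197, 95% interval 0.119 to 0.274, limma adjusted p = 0.0017). The crypt level was 4.83-fold and 2.30-fold the villus level, but the difference of 0.0897 (0.000349 to 0.179) did not pass (adjusted p = 0.187). Ccl7 was also lower in Adamts18 than in Wif1 cells (−0.184, 95% interval −0.274 to −0.0950, limma adjusted p = 0.00579). No Ccl7 UMI was seen in the 18 Adamts18 cells of library 1, which allows up to 0.145 UMIs per 10,000, and the level was 2.29-fold lower in library 2.

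Ackr4 marked 3 groups. The mesothelial-like group held 3.72 and 2.73 UMIs per 10,000, crypt fibroblasts 2.43 and 2.46 and the Fibin type 1.29 and 2.40, with no overlap between neighbors. Villus fibroblasts held 0.230 and 0.228, and the Sox6 groups from 0 to 0.343. The 3 leading groups thus lay above every library of the 4 others. The crypt level was 10.6-fold and 10.8-fold the villus level (difference 0.739, 95% interval 0.528 to 0.9498, limma adjusted p = 0.000789), which ranked in the top 1.01% of tested genes by size. After thinning 46.2% and 36.4% of mesothelial-like, 31.9% and 31.3% of crypt and 20% and 30.5% of Fibin type cells held an Ackr4 UMI. In villus cells the share was 3.36% (2.06 to 5.14) and 4.07% (3.45 to 4.76), within the interval of glia-marker cells (2.70%, 0.561 to 7.70), and it cannot be told from background.

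Ackr4 was higher in mesothelial-like cells than in lamina propria fibroblasts by 0.616 (95% interval 0.433 to 0.798, limma adjusted p = 0.000309), or 2.79-fold and 2.03-fold in level. For the Fibin type the difference of 0.235 (0.0523 to 0.418) passed at an adjusted p of 0.0336, with unequal libraries (0.0888 and 0.381). In level it was 0.971-fold in library 1 and 1.79-fold in library 2. Adjusted p lay between 0.0277 and 0.102 over 9 alternatives, of which 5 passed, so this call is weak.

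**Figure D2:**
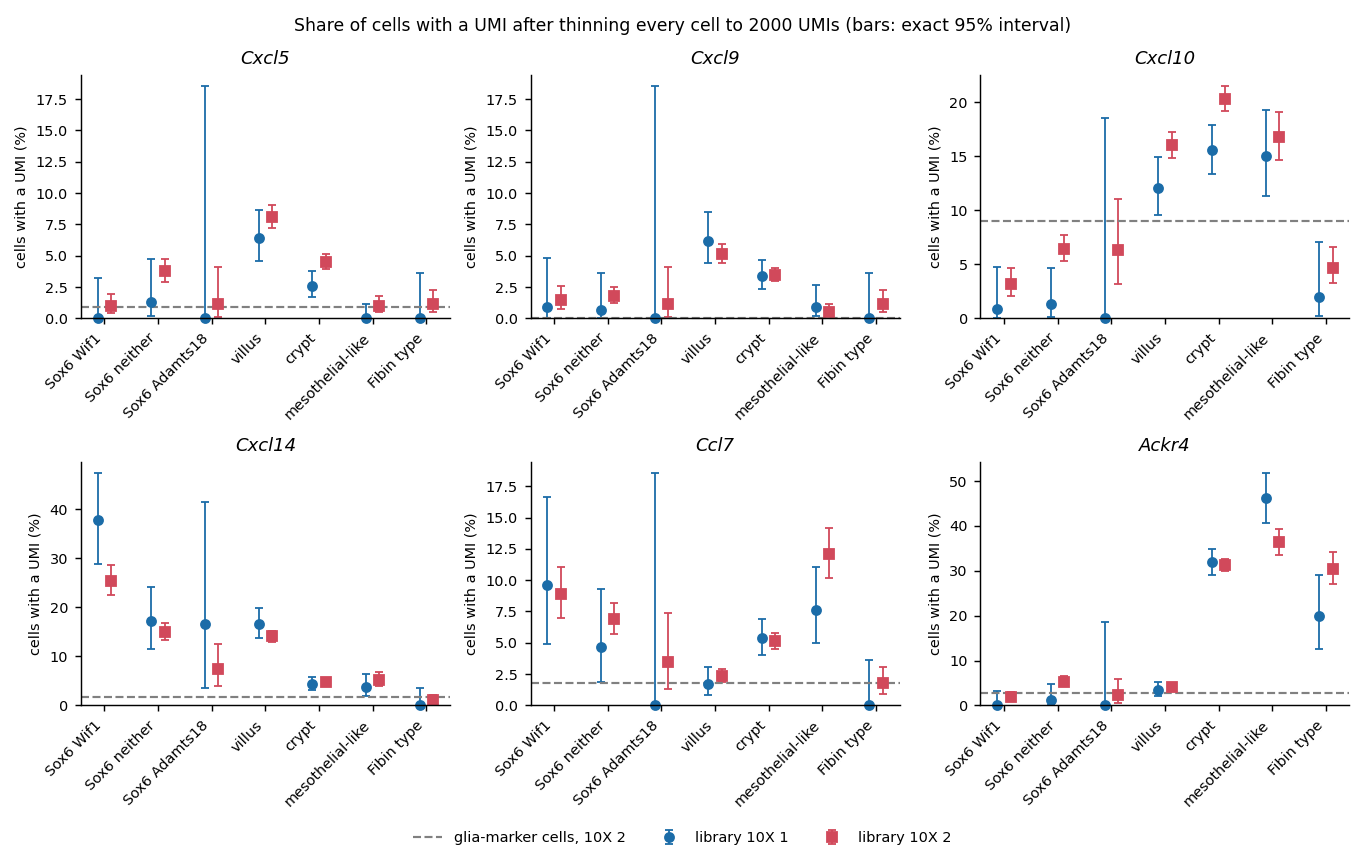
Share of cells with a UMI (percent) after thinning to 2000 UMIs, by group and library, with exact 95% intervals; axes differ between panels. Circles are library 1, squares library 2, and the dashed line is the share in glia-marker cells of library 2 (0% for Cxcl9). The 18 Adamts18 cells of library 1 give the widest intervals.

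The number of genes called sets the background for the 6. In crypt against villus, 17.9% of 1982 tested genes passed (354; 11.8% were higher and 6.1% lower in crypt), and 3 of the 6 genes did: Ackr4 was higher in crypt, and Cxcl5 and Cxcl9 were higher in villus. On a scale of logs of mean levels, 132 genes were higher and 156 lower in crypt, against 233 and 121 on the ln scale. In mesothelial-like cells against lamina propria, 27.4% of genes passed (18.5% higher and 8.88% lower), and 4 of the 6 did. The split was 367 higher and 176 lower, and on the scale of mean levels 273 higher and 253 lower. Ackr4 and Ccl7 were higher, while Cxcl5 (−0.136, limma adjusted p = 6.68e-06) and Cxcl9 (−0.0936, adjusted p = 0.000262) were lower.

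In the Fibin type against lamina propria, 53.8% of genes passed (26.6% higher and 27.2% lower) and 5 of the 6 did, so a call was common in this comparison. Cxcl5 (−0.136, limma adjusted p = 1.67e-06), Cxcl9 (−0.110, adjusted p = 2.61e-05), Cxcl10 (−0.335, adjusted p = 7.05e-06) and Cxcl14 (−0.277, adjusted p = 0.0262) were lower. The Cxcl14 call was weak, with adjusted p between 0.000145 and 0.0889 over 9 alternatives, of which 5 passed. Cxcl10 was 7.19-fold and 5.80-fold lower in level. Library 1 held no UMI of Cxcl5, Cxcl9 or Cxcl14 in its 100 Fibin type cells. Ccl7 had a value of −0.0715 (adjusted p = 0.109). The shares of thinned Fibin type cells with Cxcl5, Cxcl9, Cxcl14 or Ccl7 were at most 1.76%, below the upper limits of glia-marker cells for each gene.

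For the mean of the Sox6 groups against lamina propria, 66.4% of genes passed (39.8% higher and 26.6% lower) and all 6 did. Each Sox6 group weighed alike, so the 18 cells with Adamts18 in library 1 counted as much as the 153 with neither gene. Cxcl10 was 6.14-fold and 4.48-fold lower in level (−0.339, 95% interval −0.389 to −0.289, limma adjusted p = 5.01e-07), Cxcl5 4.82-fold and 3.68-fold lower and Cxcl9 4.30-fold and 3.79-fold lower. Ackr4 was 42.6-fold lower in library 1, from 17 UMIs, and 6.46-fold lower in library 2. Cxcl14 was higher by 0.313 (0.162 to 0.465, limma adjusted p = 0.00221), or 2.39-fold and 1.73-fold. Ccl7 passed with a small value of 0.0714 (adjusted p = 0.0317), but its level was 1.28-fold lower in library 1 and 1.30-fold higher in library 2, and its sign turned on the scale of mean levels (−0.0563, adjusted p = 0.82; range over 9 alternatives 0.0309 to 0.82). No direction is therefore given for Ccl7 here.

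Between Adamts18 and Wif1 cells 29.5% of genes passed (14.1% higher and 15.4% lower), and 2 of the 6 did, Cxcl14 and Ccl7, both lower in Adamts18 cells. The intervals of the other differences were −0.0310 to 0.0212 for Cxcl5, −0.0319 to 0.0305 for Cxcl9, −0.0636 to 0.0924 for Cxcl10 and −0.196 to 0.226 for Ackr4. Library 1 held none of these transcripts in its Adamts18 cells. With the 18 cells of that library set aside, Cxcl14 differed by −0.620 and Ccl7 by −0.102 in library 2 alone.

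**Figure D3:**
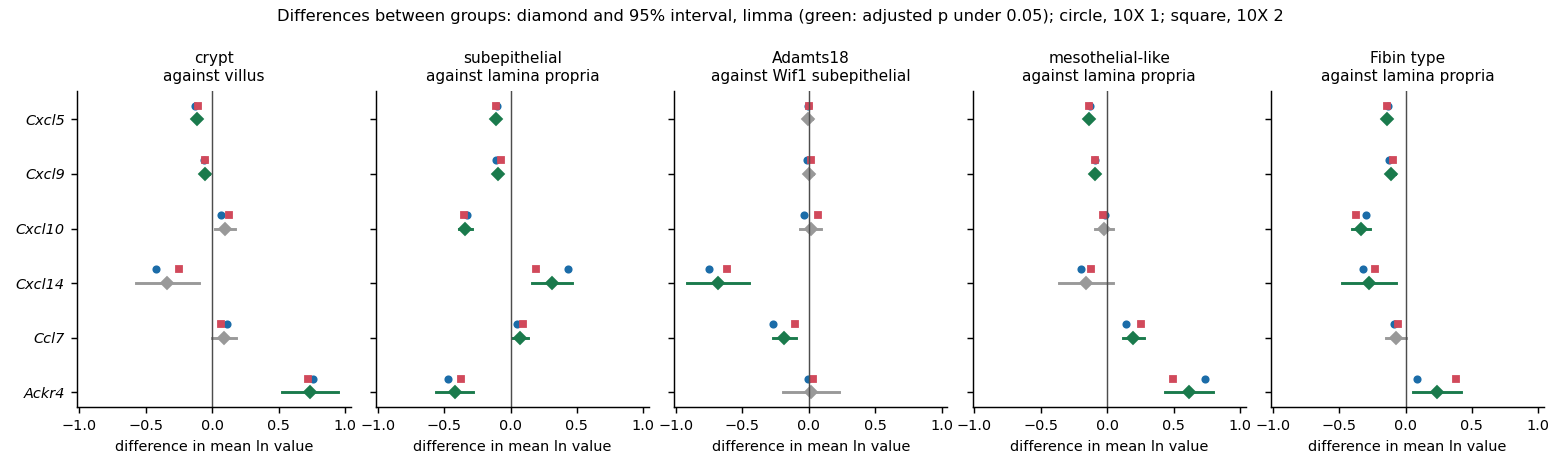
Differences in mean ln value for the 6 genes in 5 comparisons. Diamonds and bars give the limma estimate and 95% interval (green, adjusted p under 0.05; grey, not), circles library 1 and squares library 2. Ackr4 showed the largest positive difference in crypt against villus (0.739), and Cxcl14 the largest negative difference in Adamts18 against Wif1 cells (−0.686).

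Other chemokines were followed as a list of 29 genes, of which 17 were in the table and 8 passed the filter. Against villus, crypt fibroblasts held more Ccl2, a ligand of the same receptor as Ccl7 (0.224, limma adjusted p = 0.007), and more Ccl19, a ligand of Ackr4 (0.061, adjusted p = 0.003). They held less Ccl11, which attracts eosinophils (−0.504, adjusted p = 0.011). The other 5 did not pass, beside 17.9% of all genes called, and the list median was 0.028 against −0.0026 for all genes. In mesothelial-like cells 3 were higher, Cxcl1 (0.399), Ccl2 (0.170) and Cxcl13 (0.126), and the other 5 did not pass (list median 0.0099, with 18.5% of all genes higher). In the Fibin type 6 were lower, led by Ccl11 (−0.973), Ccl2 (−0.348) and Cxcl1 (−0.255), and only Ccl25, another Ackr4 ligand, was higher (0.049), with a list median of −0.139 against −0.0012. Of all genes, 53.8% were called in that comparison and 27.2% were lower.

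Among the Sox6 groups, 4 of the 8 were lower than in lamina propria, led by Ccl2 (−0.356), Cxcl1 (−0.193) and Cxcl13 (−0.189), while Cx3cl1 (0.044) and Ccl25 (0.031) were higher. With 66.4% of all genes called there, 6 calls of 8 are near the background. Adamts18 cells held less Ccl11 (−0.962, limma adjusted p = 9.37e-05), Cx3cl1 (−0.114) and Ccl8 (−0.102) than Wif1 cells, beside 15.4% of all genes lower. Only 3 of the 15 chemokine receptors in the table were detected widely enough to test. Ackr3, a scavenger of Cxcl12, was lower in crypt than in villus (−0.182, limma adjusted p = 0.0145), in the Sox6 groups (−0.428) and in the Fibin type (−0.520), so its order differed from that of Ackr4. Ackr1, another scavenger, was higher in mesothelial-like cells (0.040, limma adjusted p = 0.00193) and lower in the Sox6 groups (−0.0302) and the Fibin type (−0.0303). Ccrl2, which binds chemerin, was higher in the Sox6 groups (0.197).

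Genes of the interferon response differed in direction between comparisons. Of 23 tested, 3 were higher in crypt (Ifi204, Isg15 and Ifi207) and 2 lower, including Irf8 (−0.231), with a median of −0.006, beside 17.9% of all genes called. The Fibin type was lower in 15 and the other 8 did not pass (median −0.253), beside 27.2% of all genes lower. The 15 included the interferon-induced GTPase Iigp1 (−0.873). Adamts18 cells were lower than Wif1 cells in 8, including Iigp1 (−0.635) and Bst2 (−0.556), and higher in Irf8 (0.322), beside 15.4% of all genes lower and 14.1% higher. Mesothelial-like cells were higher in 3 and lower in 6, beside 18.5% and 8.88% of all genes. The Sox6 groups were higher in 6, such as Bst2 (0.160), and lower in 8, such as Ifi27l2a (−0.871), a total below the 66.4% of all genes called there.

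Inflammatory genes and immediate-early and heat shock genes, which also respond to tissue digestion, moved with the groups. In crypt against villus 7 of 13 inflammatory genes were higher and 1 lower, with Nfkbiz (0.609), Il6 (0.476) and the NF-kB inhibitor Nfkbia (0.458) in front and Vcam1 (−0.198) lower. The Sox6 groups and the Fibin type were each lower in 10 of the 13 and higher in 1, mesothelial-like cells higher in 6 and lower in 1, and Adamts18 cells higher in 2 and lower in 3 than Wif1 cells. Over all genes, 14.1% were higher and 15.4% lower in Adamts18 than in Wif1 cells, 26.6% were lower in the Sox6 groups and 27.2% in the Fibin type, while 18.5% were higher in mesothelial-like cells and 11.8% in crypt. Of 19 immediate-early and heat shock genes, 17 were higher in crypt than in villus and 15 in mesothelial-like cells than in lamina propria, and the others did not pass. All 19 were lower in the Sox6 groups, 18 in the Fibin type and 9 in Adamts18 against Wif1 cells. Their summed level was 228 and 240 UMIs per 10,000 in crypt, 138 and 166 in villus, 263 and 258 in mesothelial-like cells, 60.6 and 81.0 in the Fibin type and between 24.9 and 113 in the Sox6 groups. Cxcl10 was also high in the first 3 of these groups, and the part of this list in its differences was not tested.

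Within groups, most pairs of chemokines were found together in the same cells more often than the product of their shares gives. Cells were thinned to 2000 UMIs, and pairs were summed over the groups where at least 5 such cells are expected. Cxcl5 and Cxcl9 were detected together in 86 cells of library 2 against 22.5 from the product, a ratio of 3.82. In villus fibroblasts of that library 16.8% of cells with Cxcl5 also held Cxcl9, against 4.12% of cells without Cxcl5, and in library 1 the shares were 23.7% and 5.02%. For Cxcl9 and Cxcl10 the ratio was 2.46 in library 1 and 2.34 in library 2. In crypt, 38.2% and 42.8% of cells with Cxcl9 held Cxcl10, against 14.8% and 19.5% of those without. Cxcl10 and Ccl7 (1.67 and 1.46) and Cxcl9 and Cxcl14 (1.95 and 1.76) also exceeded 1 in both libraries. The exceptions were Cxcl10 with Cxcl14, at 0.851 and 0.890, and Cxcl14 with Ccl7, at 1.01 in library 2. Both sums join groups that differ in direction: in library 2, Cxcl10 with Cxcl14 gave 1.64 in mesothelial-like cells and 0.735 in villus, and Cxcl14 with Ccl7 gave 1.496 in Sox6 cells with neither gene and 0.509 in crypt. At 4000 UMIs, a depth chosen for these ratios after the data were seen, Cxcl5 with Cxcl9 gave 2.69, and all 25 ratios available at both depths kept their side of 1. These ratios are descriptions, since cells of 1 library share their capture.

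Ackr4 was found apart from Cxcl5, Cxcl9 and Cxcl14. Its ratio with Cxcl5 was 0.48 and 0.28, with Cxcl9 0.65 and 0.57 and with Cxcl14 0.46 and 0.58. In crypt fibroblasts of library 2, 16 cells held Ackr4 and Cxcl5 where the product gives 68.0, and 7.37% of cells with Cxcl5 held Ackr4 against 32.5% of cells without. In library 1 the shares were 15.4% and 32.3%. With Cxcl10 the ratio was 1.09 and 1.02, a sum over groups that in library 2 ranged from 0.615 in the Fibin type to 2.0999 in Sox6 cells with neither gene. With Ccl7 the sum over groups (1.08 and 1.11) joined opposite directions, as the ratio was 1.28 and 1.34 in crypt and 0.780 and 0.744 in mesothelial-like cells. In 309 crypt cells of library 2 Ackr4 and Cxcl10 occurred together, against 306 from the product. In that group, 31.7% of cells with Cxcl10 held Ackr4, against 31.3% of cells without. At least 2 of the 5 chemokines were seen in 6.04% and 7.53% of thinned villus cells, in 3.86% and 5.19% of crypt cells and in 0% and 1.32% of Fibin type cells.

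**Figure D4:**
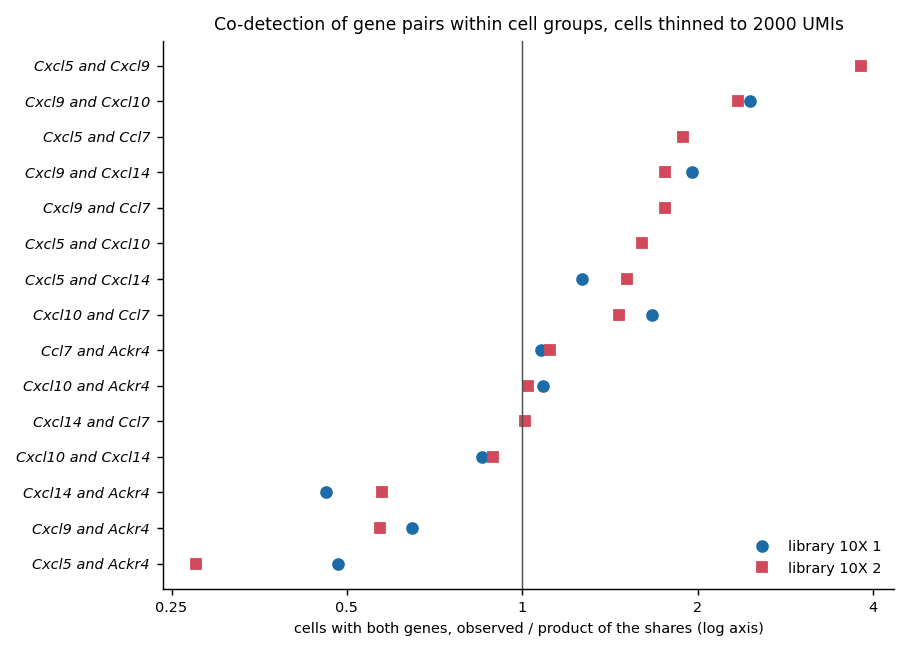
Ratio of observed cells with both genes to the product of their shares for 15 gene pairs, on a log axis, in cells thinned to 2000 UMIs and summed within groups. Circles are library 1 and squares library 2; pairs with too few expected cells in library 1 have no circle. Cxcl5 with Cxcl9 (3.82) and Cxcl5 with Ackr4 (0.28) are the ends of the order.

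Cells with a UMI of each gene were compared with the other cells of the same group and library after thinning, in every stratum with at least 10 such cells. Cells with Cxcl9 held more of the interferon-induced gene Iigp1 (0.632), of AW112010 (0.954), of Cxcl10 (0.671) and of Cxcl5 (0.607) in all 6 strata. Of 23 interferon response genes, 12 were higher in every stratum beside 4.63% of all genes compared, and the list median was 0.224 against −0.0031. Cells with Cxcl5 held more Adamdec1 (1.03), AW112010 (0.816), Rgs5 (0.698), Tmem176b (0.670) and Ifitm1 (0.573), and 10 of the 23 interferon response genes were higher in all 6 strata, beside 4.39% of all genes. Ackr4 was lower in cells with Cxcl9 in every stratum (−0.115).

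Cells with Cxcl10 had another profile. The immediate-early genes Egr1 (1.06), Junb (0.998) and Fos (0.819), the mRNA decay factor Zfp36 (0.852) and Nfkbia (0.768) were higher in all 10 strata. Of the 19 immediate-early and heat shock genes, 15 were higher in every stratum beside 4.92% of all genes, with a list median of 0.638, and 8 of 13 inflammatory and 7 of 23 interferon response genes were as well. For Cxcl9 the count in the immediate-early list was 0. Whether digestion of the tissue has a part in the detection of Cxcl10 was not tested.

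Cells with Ccl7 held more Ccl2 (0.724), Tnfaip6 (0.630), the metallothionein Mt2 (0.578), Ugdh (0.411) and Sat1 (0.357) in all 10 strata. Ccl2 and Ccl7 are neighboring members of the same chemokine family. For cells with Cxcl14, 0.293% of all genes compared were higher and 0.41% lower in all 11 strata. A sign shared by every stratum is rarer with more strata, so these shares do not measure the size of the difference. The median of the immediate-early and heat shock list was −0.198, against −0.00075 for all genes. Col18a1 was higher (0.181), and Junb (−0.385), Prnp (−0.165), Nfkbiz (−0.154) and Csrnp1 (−0.131) were lower. Cells with Ackr4 held more of the crypt markers Prss23 (0.945) and Col14a1 (0.738), of the complement component C3 (0.903), and of the matrix genes Mgp (0.908) and Fbln1 (0.862) in all 10 strata. None of the 23 interferon response genes was higher in every stratum, while 11 of 19 immediate-early and heat shock genes were (median 0.331), beside 2.99% of all genes (median −0.0049). These profiles are descriptions, as all genes come from the same cells.

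**Figure D5:**
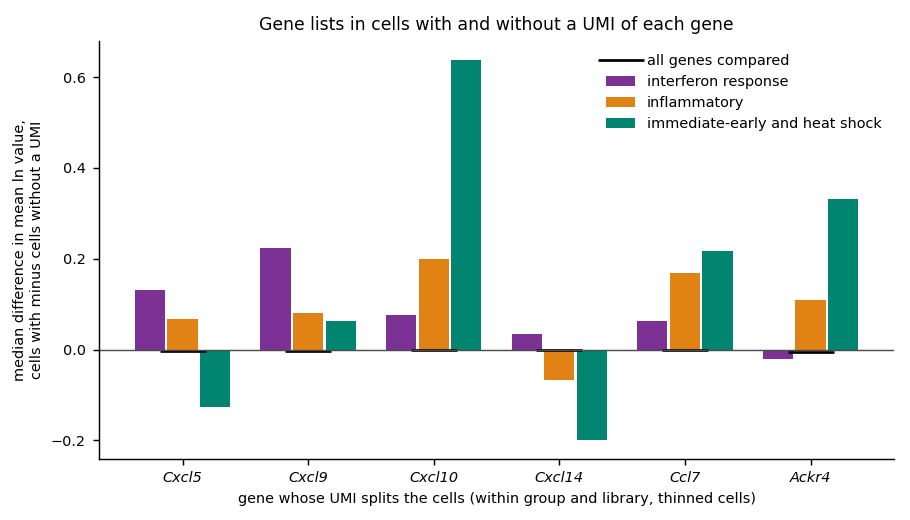
Median difference in mean ln value between thinned cells with and without a UMI of each gene, over the genes of 3 lists (bars) and over all genes compared (black line). The interferon response list is highest for Cxcl9 (0.224), and the immediate-early and heat shock list for Cxcl10 (0.638).

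The genes whose means over the 14 combinations of group and library, centered within library, were most like those of each gene are given by Pearson's r as a description, since the points share libraries and cells. For Cxcl5 they were Fgfr4 (0.976), Fgfr2 (0.963) and Sertm1 (0.949), and for Cxcl9 Plxna4 (0.979), Fgfr2 (0.977) and Nr2f1 (0.975). Cxcl5 and Cxcl9 had an r of 0.933 with each other. Cxcl10 was most like Cd55 (0.981), Gm26885 (0.979) and C4b (0.972). The genes nearest to Cxcl14 were Unc93b1 (0.957), Trim46 (0.952) and Adcy5 (0.942), and its r with Ackr4 was −0.710. Ccl7 had the least close neighbors, Tiparp (0.905), Igdcc4 (0.875) and Coro2b (0.866). Nearest to Ackr4 were Ogfrl1 (0.981), Cilp (0.967) and Ism1 (0.965).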

How the data were processed

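The authors aligned 10X reads with Cell Ranger 3.1.0 and Smartseq2 reads with TopHat2 2.1.1 to mm10 (GRCm38), and filtered, normalized and integrated cells with Seurat (versions from the submitters' processing notes). The deposited values are natural log values: ln of 1 plus UMIs scaled to 10000 per 10X cell. UMIs were recovered from them (100% whole, tolerance 0.01). Smartseq2 values were corrected by the integration, can be negative, and entered no group or test. The table at hand ends inside 1 gene row, which was left out.

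Genes with a UMI in at least 5% of the cells of any of 7 groups were tested on mean ln values per library and group with limma 3.58.1 (R 4.3.3; mean trend, library as block, 14 means, Benjamini-Hochberg over 1982 genes, threshold 0.05). The block pairs groups captured in the same library. Cells are not replicates. P-values measure how far differences between groups varied from 1 library to the other, pooled over the 7 groups and moderated across genes. Each mean weighed alike whatever its number of cells. With 2 libraries this spread may be technical. The tests took means of ln values, so no count model was used, although whole UMIs were recovered. No doublet caller was run, and an alternative leaves out the deepest 10% of cells. Thinning used seed 7. Genes named are the 6, at most 3 per list and direction of largest difference among those past the threshold with 1 sign in both libraries, the 3 of highest r, and the 5 of largest difference between cells with and without each gene. Members and lists were chosen with earlier results of these data known. Code ran in Python 3.11.15 with numpy 2.4.6, pandas 2.3.3 and scipy 1.17.1 and was tested on simulated data. No promoter sequence was used for Cxcl5 and Ccl7. Results of 1 gene that this rule names are not reported here.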

Additional observations from a re-analysis of the deposited data

How the results depend on the processing

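Each comparison was refitted without the filter, without the mean trend, without the replicate block, on the natural log of mean UMIs per 10,000 plus 0.1, after thinning to 2000 UMIs, with 2 UMIs asked for by the single-gene gates, without cells holding Ptprc, Epcam or Pecam1, without the deepest 10% of cells and, chosen after the data were seen, without glia-marker and immune-marker cells. Thinning lowered the count of genes called to 183 in crypt against villus, 381 in Adamts18 against Wif1 cells and 337 in mesothelial-like cells against lamina propria; the cause was not tested. Fits without the replicate block, so without pairing groups by library, called 273, 1257, 503, 476 and 997 genes in the order crypt against villus, Sox6 groups, Adamts18 against Wif1, mesothelial-like and Fibin type, and 3 of the 30 differences of the 6 genes lost their call (Cxcl9 in crypt against villus, Ccl7 in the Sox6 groups and Cxcl14 in the Fibin type). A sign turned for Ccl7 in the Sox6 groups on the scale of mean levels (−0.0563) and for Cxcl10 in Adamts18 against Wif1 cells, where no setting passed, on that scale (−0.0900) and without the deepest 10% of cells (−0.0150). Without either 10X library, the other gave the same sign in the 30 differences wherever a call had been made; with 1 library there are no residual degrees of freedom, so such values have no test. In the Fibin type, Ackr4 also lost its call without the filter, without the mean trend, after thinning and with stricter gates (adjusted p from 0.0277 to 0.102 over all settings). Without the glia-marker and immune-marker cells, no call was lost and Cxcl14 in crypt against villus passed (adjusted p = 0.0478). Without those cells 41 of the levels moved by less than the spread between libraries, and 1, Cxcl10 in Sox6 cells with neither gene, moved by more. The number of cells limits the Sox6 cells with Adamts18, 18 in library 1 (median 11565.5 UMIs), and depth limits villus cells of library 2 (median 5982 UMIs), of which thinning to 2000 UMIs left out 85.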

Other observations

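The 10X cells that met no gate, 199 in library 1 and 1305 in library 2, were shallower (median 4600 and 4368 UMIs). They held 2.08 and 2.63 UMIs per 10,000 of Cxcl10, 0.547 and 0.766 of Cxcl9, 0.220 and 0.590 of Cxcl5, 0.608 and 0.438 of Cxcl14, 0.166 and 0.425 of Ccl7 and 0.348 and 0.661 of Ackr4. Their immune marker list summed to 3.91 and 3.99 UMIs per 10,000, against at most 0.31 in the gated groups. The 739 Smartseq2 cells carry corrected values only. Their mean ln values on plate 1 and plate 2 were 0.299 and 0.478 for Cxcl10, 0.441 and 0.641 for Ackr4, 0.2505 and 0.266 for Cxcl14, 0.111 and 0.169 for Ccl7, 0.085 and 0.111 for Cxcl5 and 0.063 and 0.083 for Cxcl9, with between 6.39% and 47.2% of the cells below 0 for a gene.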
